A study of Mus musculus with 10 samples.

Results

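Lin28a, Lin28b, Hmga2, Igf2bp1, Igf2bp2 and Igf2bp3 are among the genes often called oncofetal, a name for activity in embryonic cells and again in some tumours. Dis3l2 was listed with them for its place in the let-7 pathway. The 7 genes were chosen by name from the deposited gene table, which held 49624 rows after rows with a repeated name were summed. The list itself was drawn up with earlier results of these data known, so the levels and differences of its members are given as a description, with no test. Each symbol was found in 1 row. The row of Igf2bp1 also names Mir3063, a microRNA gene that lies inside Igf2bp1 on the same strand (GRCm38, chr11:95963292-95963383), and the reads of the row cannot be divided between the pair. All 7 rows passed the filter on low values (at least 10 normalised counts in at least 2 libraries), as did 16056 rows in all. The fewest reads behind a value were an estimated 48.0, for Lin28a in ETO replicate 1.

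LIN28A and LIN28B are RNA-binding proteins that hold back maturation of the let-7 microRNAs. They bind the loop of let-7 precursors through a cold-shock domain and through zinc knuckles that read a GGAG motif. LIN28A recruits the uridylyl transferases TUT4 and TUT7. The oligo-U tail so made is read by the exonuclease DIS3L2, which degrades the precursor. Mature let-7 in turn represses messages with matching sites in their 3′ UTRs, among them those of Lin28 itself, of the chromatin architectural protein HMGA2 and of the IGF2BP proteins. IGF2BP1 to IGF2BP3 bind messenger RNAs, Igf2 among them, and affect their stability, localisation and translation.

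The RNA came from mouse embryonic stem cells, kept in 2i/LIF medium (1 µM of the MEK inhibitor PD0325901, 3 µM of the GSK3 inhibitor CHIR99021 and 1000 U/ml of LIF). KO and WT were cells of a C57BL/6J line with the alleles Mof fl/fl and the inducible recombinase Cre-ER TM, labelled as Mof knockout and wild type, so that WT also carried the floxed alleles and the inducible Cre. Ethanol or 100 nM 4-hydroxytamoxifen was given to them for 3 days, and the labels do not state which group had which. Drug, Cre activity and loss of Mof therefore cannot be told apart. Mof is the gene Kat8, a histone acetyltransferase. Released, ETO and Control were cells of the E14tg2a line. ETO had etomoxir, an inhibitor of carnitine palmitoyltransferase 1, for 4 days, and Control had water for 4 days. Released had 4 days of etomoxir and a further 4 days without it, with no water group of that length. Time in culture therefore cannot be told apart from treatment where Released is compared with ETO or Control. Each of the 5 groups held 2 libraries, named as biological duplicates with no statement of separate cultures or days, so a p-value measures only the spread between these libraries. The line differs between the experiments, so that WT and Control differ in more than treatment.

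Library totals ran from 10562100 to 13326200 normalised counts, made from an estimated 9783250 to 16779200 reads. Kat8 measured 222 and 205 normalised counts in KO, against 433 and 357 in WT (log2 difference -0.88, SE 0.11, limma, adjusted p = 3.64e-05). The gene total does not separate deleted exons from the rest. All 7 markers of ES cells were detected in every group. Their summed normalised counts were 53173 to 53404 in KO against 56466.5 to 58080.5 in WT, and 59845 to 59893 in Released and 35982.5 to 37982 in ETO, against 59509 to 59594 in Control. All 7 were lower in ETO than in Control, but KO was mixed. Esrrb (13446 and 12709 in KO, 17996 and 16807 in WT), Pou5f1 and the row of Tfcp2l1 were lower in KO than in WT. Nanog (6307 and 6597 in KO, 5011 and 5096 in WT), Zfp42 and Klf4 were higher, and Sox2 overlapped. In bulk RNA, fewer cells of a type and less RNA per cell cannot be told apart.

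The sequences through which the members are tied to let-7 are shown first. The 9 mature 5p names of let-7 and miR-98 taken from RefSeq (GRCm38.p6) share the seed at bases 2 to 8. It is given in capitals in the 4 examples that follow.
let-7a: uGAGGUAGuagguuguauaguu
let-7b: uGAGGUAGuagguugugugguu
let-7g: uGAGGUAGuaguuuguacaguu
miR-98: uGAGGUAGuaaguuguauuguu
The LIN28 recognition motif is in capitals in the precursor loops, each the stretch between the mature arms of the RefSeq hairpin. Mirlet7a-1 (chr13), Mirlet7c-1 (chr16) and Mirlet7f-2 (chrX) hold it, and Mirlet7c-2 (chr15) does not.
Mirlet7a-1: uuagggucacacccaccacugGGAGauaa
Mirlet7c-1: uagaguuacacccugGGAGuuaa
Mirlet7f-2: uuagggucauaccccaucuuGGAGauaa
Mirlet7c-2: uugggcucugccccgcucugcgguaa
GGAG was found in the loop of 9 of 12 let-7 hairpins (75.0%), against 44 of 633 other mouse hairpins (6.95%). It was searched on the hairpin strand. No match says only that these letters are not in that loop.

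Sites for the seed were searched on the transcript strand of the longest annotated 3′ UTR of each gene (GENCODE M21, GRCm38). The motifs were CTACCTCA (8mer), CTACCTC with no A after it (7mer-m8) and TACCTCA with no C before it (7mer-A1), so that no site was counted under 2 names. The 8mers of the members are printed with their flanks, the site in capitals, all on the minus strand.
Lin28a, chr4:134005184-134005210: cacagcctgttgaaCTACCTCAttttt
Lin28a, chr4:134004546-134004572: agatcgccacaaacCTACCTCActgtg
Lin28b, chr10:45381017-45381043: cccgggcgggaagtCTACCTCAtgcaa
Hmga2, chr10:120364219-120364245: ccgacattcaatttCTACCTCAgcatc
Igf2bp1, chr11:95961773-95961799: ctgtgcgaagtaaaCTACCTCAaggtg
Igf2bp1, chr11:95959352-95959378: agcagtgctattaaCTACCTCAgcccc
Igf2bp1, chr11:95958758-95958784: tataaatggatgaaCTACCTCAgtcct
Igf2bp2, chr16:22059468-22059494: cacacaaataaaagCTACCTCAggtgt
Igf2bp3, chr6:49086782-49086808: gcatttttactcaaCTACCTCAggtat
Hmga2 held 7 sites of any kind in 3014 bases, Lin28b 5 in 4445 bases and Igf2bp1 5 in 6337 bases. Lin28a and Igf2bp2 held 2 each and Igf2bp3 held 1. Dis3l2, whose product acts on the precursor, held none in its 350 bases. An 8mer occurs in 642 of 21010 protein-coding genes with a 3′ UTR (3.06%). Among the 5817 genes whose UTR is between 1784 and 6337 bases long, the range of the 6 members with sites, 5.95% hold an 8mer and 29.4% a site of any kind. A match is a description of the sequence and not a measured site.

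**Figure D1:**
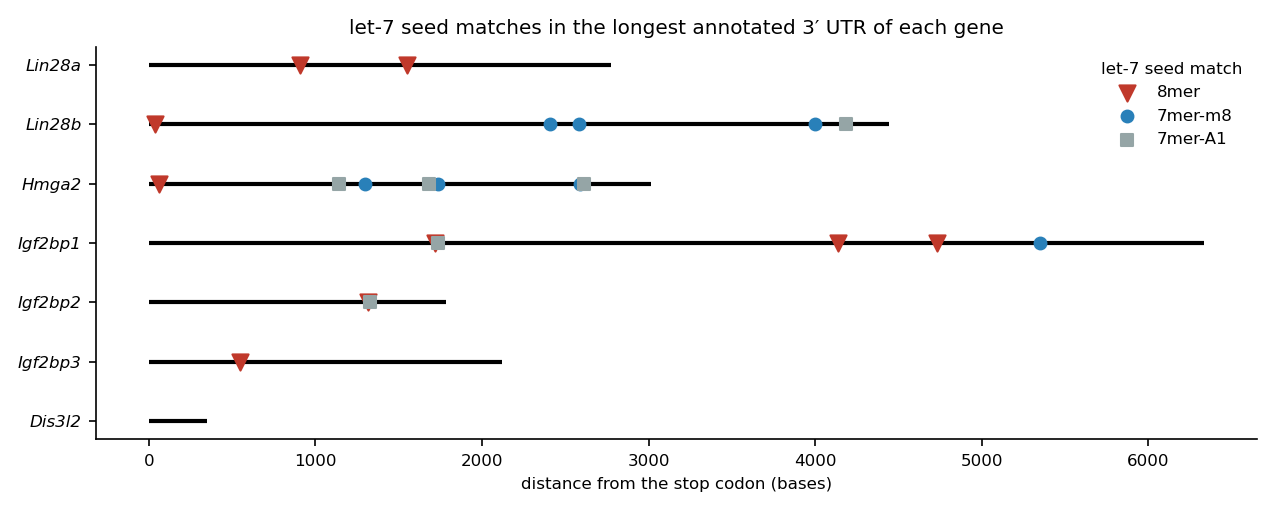
Matches to the let-7 seed along the longest annotated 3′ UTR of each gene, by distance from the stop codon in bases; lines show the length of the UTR and symbols the kind of match. Hmga2 holds 7 matches, Lin28b and Igf2bp1 hold 5 each, and Dis3l2 holds none.

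Lin28a (chr4:134003330-134018841) is the main LIN28 form of embryonic stem cells and was the member with the widest range. It measured 625 and 602 normalised counts in KO, against 785 and 837 in WT. In the E14tg2a line it measured 764 and 800.3 in Released and 47.4 and 63.9 in ETO, against 1296 and 1344 in Control. Both ETO libraries lay far below every other library of the study, and Released lay between ETO and Control without reaching the lower of the Control values. The means were 55.7 ± 11.7 in ETO and 1319.8 ± 34.2 in Control (SD, n = 2 each), so that ETO held 4.22% of the Control level and Control was 23.7-fold higher. The fitted log2 difference of ETO against Control was -4.56 (SE 0.11), which put it at percentile 0.0187 of all genes tested. Released held 59.3% of the Control level (log2 difference -0.75, SE 0.11). KO was lower than WT by a far smaller margin, with means of 614 ± 16.2 and 811 ± 37.2 (log2 difference -0.40, SE 0.11). The deposited FPKM (fragments scaled by transcript length and library size) differ from the counts in 1 place. ETO replicate 1 had 2.24 FPKM and replicate 2 had 1.38 FPKM, the opposite order to the normalised counts, and 1 FPKM stood for 21.2 normalised counts in ETO replicate 1 against 43.6 to 47.8 in the other 9 libraries. On the FPKM scale the log2 ratio of ETO to Control was -3.94.

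Lin28b (chr10:45376620-45486395), the paralog better known from later embryonic and tumour cells, was among the least abundant members. It measured 172 and 212 normalised counts in KO, against 116 and 135 in WT, and the groups did not overlap. Its values were 70.9 and 59.8 in Released and 92.9 and 86.3 in ETO, against 121 and 147 in Control. Unlike Lin28a, Lin28b was lower in Released than in ETO, and Released was the lowest group of all. The fitted log2 difference was 0.61 for KO minus WT. It was -0.57 for ETO minus Control, -0.45 for Released minus ETO and -1.03 for Released minus Control (SE 0.17 each). The estimated reads behind these values ran from 51.0 in Released replicate 2 to 162 in KO replicate 2.

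The share of Lin28a in the summed FPKM of the pair describes the balance of the paralogs per length of transcript. It was 84.4% and 80.8% in KO, against 90.3% and 89.6% in WT. In Released it was 94.4% and 95.3%, and in ETO 64.9% and 54.6%, against 93.8% and 93.1% in Control. ETO and KO lay below the other groups. In ETO replicate 1 the share rests on the deposited Lin28a FPKM that departs from its count. At the conversion of the other 9 libraries, a setting added after seeing the data, Lin28a there would be at 0.993 to 1.09 FPKM beside 1.21 for Lin28b, and its share 45.0% to 47.3%. By normalised counts, which are not per length, Lin28b exceeded Lin28a in both ETO libraries.

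Dis3l2 (chr1:86703808-87050095), the exonuclease that degrades uridylated let-7 precursors, differed little within the E14tg2a line. It measured 881 and 912 normalised counts in KO, against 1131 and 1074 in WT. In E14tg2a cells it measured 428 and 418 in Released and 443 and 472 in ETO, against 514 and 484 in Control. All 6 E14tg2a values lay below all 4 values of the floxed line. The log2 difference was -0.30 for KO minus WT, and within E14tg2a cells it was -0.12 for ETO minus Control, -0.11 for Released minus ETO and -0.24 for Released minus Control (SE 0.08 each). The pseudogene Gm6136 lies inside Dis3l2 on the opposite strand, its own row reached 516 normalised counts, and whether counting used strand is not given in the sources used here.

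Hmga2 (chr10:120361275-120476469) encodes the high mobility group protein best known as a let-7 target, with the most seed matches of the 7 genes. It measured 285 and 288 normalised counts in KO, against 158 and 172 in WT, so that KO was 1.74-fold higher (log2 difference 0.80, SE 0.08). In the E14tg2a line it measured 1197 and 1291 in Released and 1124 and 1101 in ETO, against 755 and 744 in Control. ETO was 1.48-fold Control (log2 difference 0.57, SE 0.08), and Released was 1.66-fold Control (log2 difference 0.73, SE 0.08). The Hmga2 level was thus above Control in Released, after 4 days without etomoxir, where Lin28a stood at 59.3% of its Control level. The means of Released and ETO differed by 0.16 on the log2 scale (SE 0.08). WT and Control stood further apart than the groups compared within either line. Their means were 165 ± 10.1 in WT and 749.8 ± 7.65 in Control (SD, n = 2 each), a ratio of Control to WT of 4.55. Line, experiment and the additions to the medium cannot be told apart in that ratio.

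**Figure D2:**
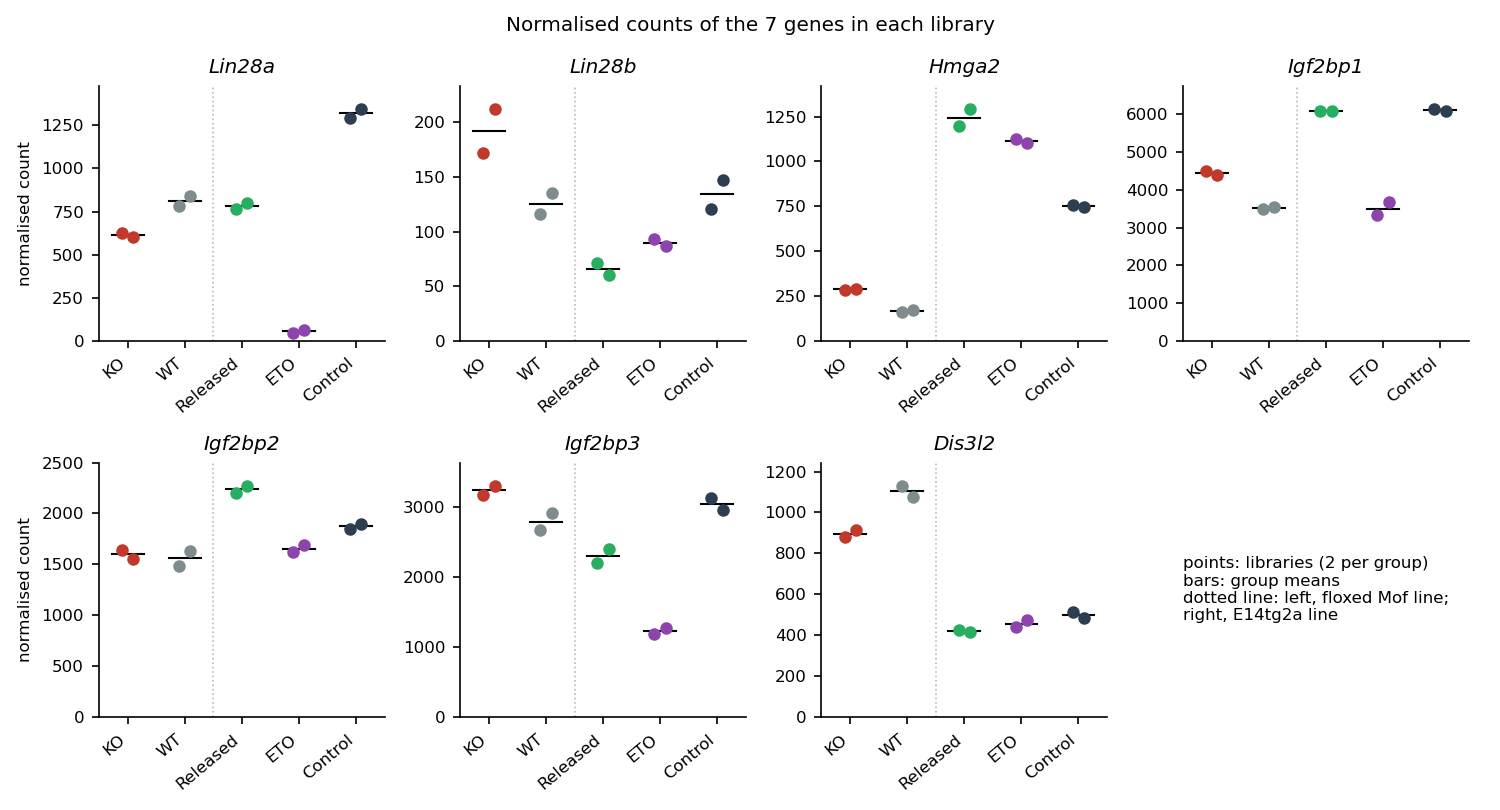
Normalised count of each of the 7 genes in each library (points) with the group mean (bars), in KO, WT, Released, ETO and Control. Lin28a lies at 47.4 and 63.9 in ETO and at 602 or more in every other library, Hmga2 is lower in the floxed line than in E14tg2a cells, and Dis3l2 is higher there.

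The 3 Igf2bp genes were the most abundant members per length of transcript in KO, WT, Released and Control, while in ETO Hmga2 stood above Igf2bp3. Igf2bp1 (chr11:95957163-96005940) measured 4511 and 4391 normalised counts in KO, against 3484 and 3538 in WT. It measured 6104 and 6092 in Released and 3338 and 3667 in ETO, against 6140.0 and 6092 in Control. Its values were lower in ETO and back at the Control level in Released, with overlapping groups. The log2 difference was 0.34 for KO minus WT, -0.81 for ETO minus Control and 0.80 for Released minus ETO (SE 0.06 each). The means of Released and Control were 6098 ± 8.44 and 6116 ± 33.8 (SD, n = 2 each). By FPKM the Released mean of 119 ± 11.2 stood above the Control mean of 95.2 ± 4.44, because 1 FPKM stood for 48.0 to 66.7 normalised counts across the libraries.

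Igf2bp3 (chr6:49085223-49214957) was the family member with the widest range in etomoxir. It measured 3175 and 3310.3 normalised counts in KO, against 2672 and 2921 in WT. In the E14tg2a line it measured 2206 and 2405 in Released and 1188 and 1274 in ETO, against 3137 and 2963 in Control. ETO held 40.4% of the Control level and Released 75.6%, and the 3 groups did not overlap. On the log2 scale KO minus WT was 0.21, ETO minus Control was -1.31, Released minus ETO was 0.90 and Released minus Control was -0.40 (SE 0.07 each). Malsu1 overlaps the 3′ end of Igf2bp3 on the opposite strand and its own row reached 544.7 normalised counts.

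Igf2bp2 (chr16:22059009-22163299), the family member also expressed in adult tissues, had the narrowest range over the 10 libraries. It measured 1639 and 1558 normalised counts in KO, against 1487 and 1637 in WT, and these groups overlapped (log2 difference 0.03, SE 0.07). It measured 2199 and 2273 in Released and 1620.0 and 1687 in ETO, against 1853 and 1894 in Control. Released was the highest group, with log2 differences of 0.44 against ETO and 0.26 against Control (SE 0.07 each). The difference of ETO against Control was -0.18.

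Summed over the family, the FPKM were 184 and 170.4 in KO, against 140.4 and 157 in WT. In the E14tg2a line the sums were 212 and 226 in Released and 125 and 146 in ETO, against 196 and 197 in Control. Igf2bp3 made up 17.3% and 17.6% of the summed FPKM in Released and 15.9% and 14.7% in ETO, against 26.7% and 24.6% in Control. The share of Igf2bp3 was thus below Control in Released as in ETO, while the sum was not lower in Released. Igf2bp2 made up 37.0% and 35.1% in ETO against 26.4% and 25.5% in Control. In the floxed line Igf2bp1 made up 44.7% and 44.4% in KO, against 38.6% and 38.9% in WT.

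**Figure D3:**
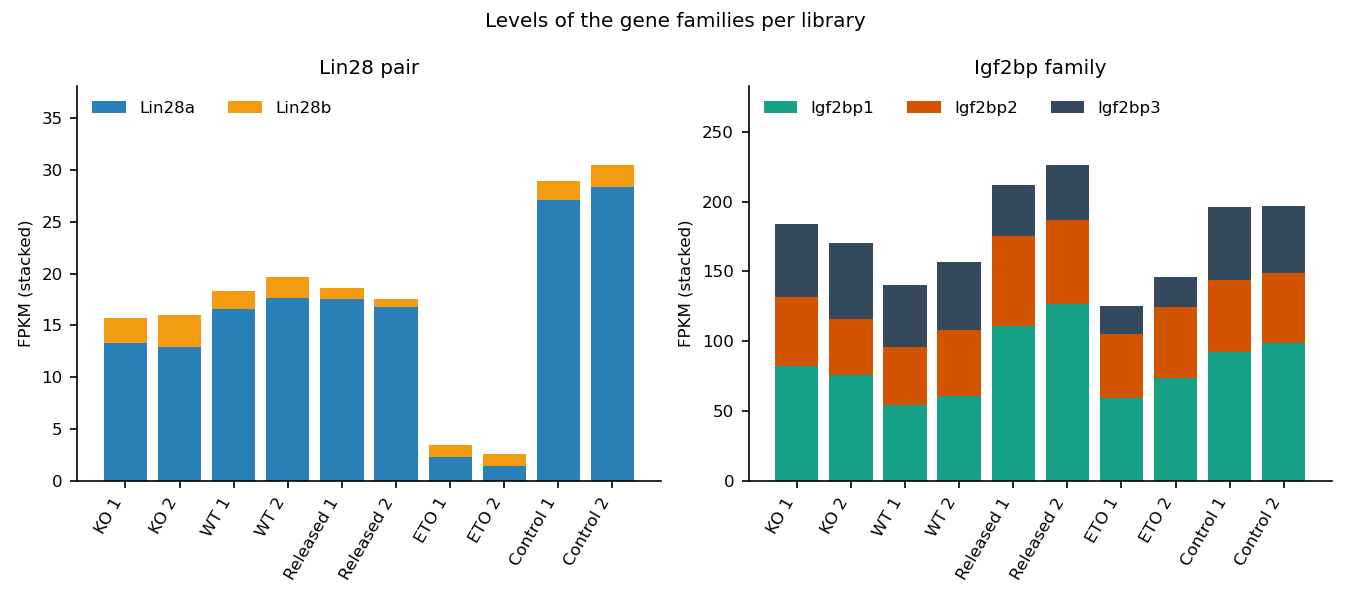
FPKM of Lin28a and Lin28b (left) and of the 3 Igf2bp genes (right), stacked for each library, in KO, WT, Released, ETO and Control. The Lin28 stack is low in both ETO libraries, at 2.24 and 1.38 FPKM of Lin28a, and the Igf2bp stack is lowest in ETO replicate 1, at 125 FPKM.

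The order of the members by FPKM differed between the lines and treatments. In KO it was Igf2bp1 (79.0 ± 4.80), Igf2bp3 (53.7 ± 1.15), Igf2bp2 (44.6 ± 6.19), Dis3l2 (21.0 ± 0.488), Lin28a (13.1 ± 0.25), Hmga2 (5.71 ± 0.00105) and Lin28b (2.75 ± 0.439) (SD, n = 2). WT had the same order, with overlapping values of Igf2bp3 and Igf2bp2. In ETO, Hmga2 (22.2 ± 0.170) stood above Igf2bp3 (20.7 ± 1.08), and Lin28a (1.81 ± 0.609) stood above Lin28b (1.18 ± 0.0446) in the deposited values, an order that ETO replicate 1 does not keep at the conversion of the other libraries. In Control, Lin28a (27.8 ± 0.884) stood above Hmga2 (15.3 ± 0.35), and Igf2bp2 and Igf2bp3 overlapped. Lin28b was last in KO, WT, Released and Control.

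KO against WT asks what differs in the Mof knockout. Among all genes tested, 37.9% were called at an adjusted p under 0.05, 24.6% higher and 13.3% lower in KO, and 64.6% had groups that did not overlap. Of the 7 members 6 had groups that did not overlap, 4 higher (Lin28b, Hmga2, Igf2bp1, Igf2bp3) and 2 lower (Lin28a, Dis3l2). Because the members were proposed with these values known, nothing is read from that count. The LIN28 paralogs went opposite ways, and so did Hmga2 and Lin28a. The balance of calls over all genes depended on scaling. Higher genes made up 64.8% of calls on the authors' scale, 52.3% with trimmed-mean (TMM) and with median-of-ratios factors, and 37.0% with libraries scaled to equal totals, which moved the median of all genes by -0.16. The members moved by a like amount, so that with equal totals Igf2bp2 changed sign to -0.13 and Igf2bp3 was at 0.05. Trophectoderm markers summed to 1489 to 1548 normalised counts in KO, with Cdx2 at 0, against 1123 to 1139 in WT, with Cdx2 and Elf5 at 0. Formative markers, with Fgf5 at 0 in both groups, summed to 1105 to 1130 in KO against 917 to 945 in WT, and those of primitive endoderm, all 5 detected in both groups, to 79.8 to 96.9 against 107 to 115. Tfap2c made up most of the trophectoderm sums (1337 and 1423 in KO, 1080 and 1056 in WT) and Dnmt3b most of the formative sums. In primitive endoderm the lower sum was that of Gata4, with 56.5 and 45.8 in KO against 84.2 and 86.4 in WT. Gata6 was higher, with 10.8 and 13.1 in KO against 7.40 and 6.87 in WT. Sums of neural markers overlapped between the groups. The part of these in the members' differences was not tested.

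ETO against Control asks what differs after 4 days of etomoxir. Of all genes tested, 60.8% were called, 26.8% higher and 34% lower in ETO, and 81.6% had groups that did not overlap. None of the 7 members had groups that overlapped, with Hmga2 higher and Lin28a, Lin28b, Igf2bp1, Igf2bp2, Igf2bp3 and Dis3l2 lower, again a count from which nothing is read. Lin28a and Igf2bp3 had differences larger than 1 on the log2 scale. With libraries scaled to equal totals the median of all genes moved by 0.16 and higher genes made up 57.0% of calls rather than 44.1%. Under that scaling Dis3l2 changed sign to 0.04 and Igf2bp2 was at -0.01. Markers of other cell types moved with the treatment. Those of primitive endoderm, all 5 detected, summed to 294 to 304 normalised counts in ETO against 74.9 to 79.9 in Control, and those of trophectoderm, all 5 detected, to 1524 to 1557 against 802 to 810.5. In primitive endoderm the higher sum was that of Gata4 and Gata6. The row of Pdgfra was lower, with 32.6 and 33.2 in ETO against 39.6 and 36.3 in Control. Sox17 and Sox7, at low counts, overlapped. In trophectoderm Eomes (536 and 515 in ETO, 77.3 and 95.4 in Control), Tfap2c and the row of Gata3 were higher. Cdx2 was lower, with 5.93 and 7.47 in ETO against 61.6 and 35.3 in Control, and Elf5, at low counts, overlapped. Fibroblast markers summed to 164 to 166 in ETO, with Col3a1 at 0, against 58.1 to 58.3 in Control, with Twist2 at 0. Col1a1 made up most of that sum, with 152 and 154 in ETO against 39.6 and 40.5 in Control, and Col1a2 was lower in ETO. Neural markers (4 rows for 5 symbols) summed to 863 to 903 in ETO against 305 to 306 in Control. Nes made up most of that sum, with 689 and 683 in ETO against 198 and 188 in Control, and Pax6, at low counts, was lower. The sums were lower in ETO for formative markers (587 to 671, against 1843 to 1905) and for mesoderm (89.0 to 103, against 229 to 254). Dnmt3b made up most of the formative sums, with 539 and 623 in ETO against 1777 and 1750 in Control. In mesoderm the lower sum was that of T, with 7.91 and 7.47 in ETO against 172 and 193 in Control, while Kdr was higher, with 75.1 and 83.0 in ETO against 44.0 and 46.7 in Control. The share of mitochondrial rows was 0.588% to 0.761% in ETO and 3.34% to 3.39% in Control. The part of these in the members' differences was not tested.

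Released shares its libraries between the comparisons with ETO and with Control, and ETO shares its own with the comparison above. Against ETO, 57.7% of all genes were called, 33.1% higher and 24.6% lower in Released, and 81% did not overlap. Here none of the members overlapped, Lin28b and Dis3l2 being lower and Lin28a, Hmga2, Igf2bp1, Igf2bp2 and Igf2bp3 higher. Against Control, 12.5% of all genes were called, 7.03% higher and 5.51% lower in Released, and 61.7% did not overlap. Here 6 members did not overlap, Hmga2 and Igf2bp2 being higher and Lin28a, Lin28b, Igf2bp3 and Dis3l2 lower. As before, nothing is read from these counts. With equal totals, higher genes made up 45.8% of calls against ETO rather than 57.4%, and 66.5% of calls against Control rather than 56.1%. Of the Control level, Released held 59.3% for Lin28a, 48.7% for Lin28b, 165.9% for Hmga2, 99.7% for Igf2bp1, 119% for Igf2bp2, 75.6% for Igf2bp3 and 84.9% for Dis3l2. The Released to Control difference of Igf2bp1 was -0.0043 on the log2 scale and its sign depended on the setting.

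**Figure D4:**
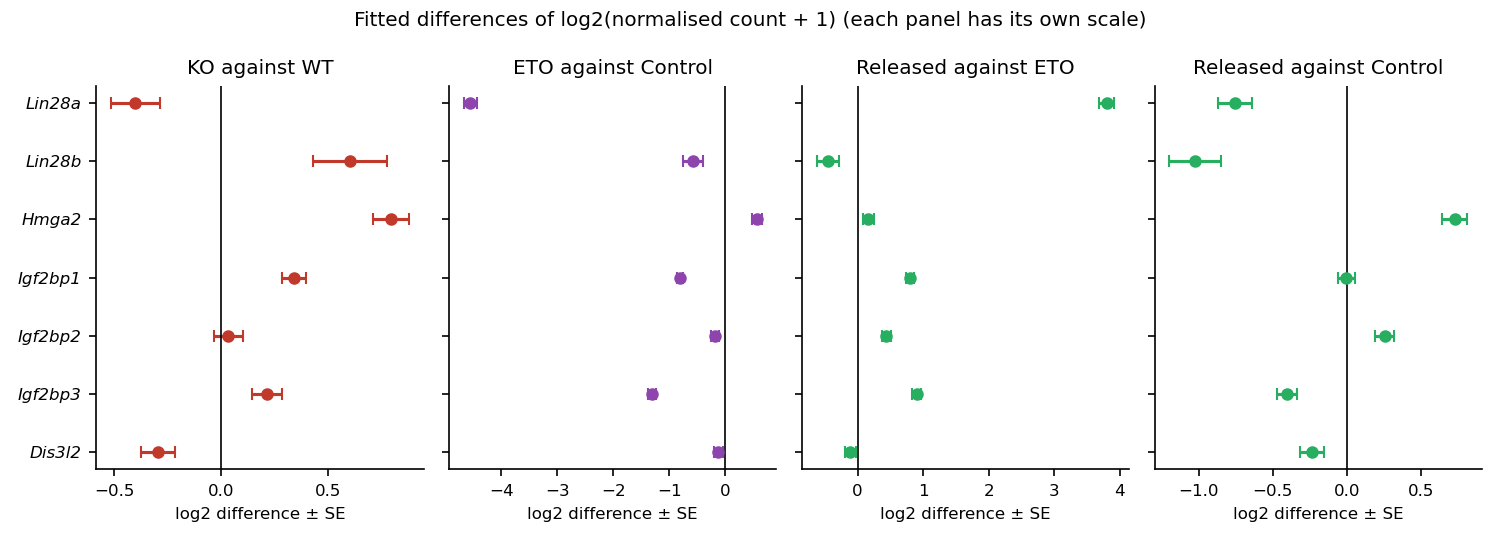
Fitted difference of log2(normalised count + 1) with its SE for each member, with KO minus WT at the left and ETO minus Control, Released minus ETO and Released minus Control to its right; each panel has its own scale, and the last 3 share libraries. Lin28a stands at -4.56 in ETO against Control and at 3.80 in Released against ETO, and no other member goes beyond 1.31 in size.

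Genes that make and use let-7 were examined as 20 rows of a list of biogenesis and silencing factors. In KO, 12 rose and 2 fell, where 24.6% of all genes tested rose and 13.3% fell. The list median was 0.24 against 0.08 over all genes tested. With equal totals the counts were 6 and 3. Ddx5, a helicase of the Microprocessor whose row also names Gm25994 and Mir3064, measured 8171 ± 631 in KO and 5129 ± 682 in WT (log2 difference 0.68, SE 0.08, limma, adjusted p = 1.4e-05). Tnrc6a, a silencing partner of Argonaute in a row with 2 predicted genes, measured 2304 ± 16.4 in KO and 1600.1 ± 73.4 in WT (adjusted p = 5.1e-05, limma). Ddx17, the paralog of Ddx5, rose by 0.40 (adjusted p = 5.52e-05). Ago1, an Argonaute, rose by 0.49 in KO (adjusted p = 7.07e-05).

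In ETO the same list had 4 genes that rose and 9 that fell, where 26.8% of all genes tested rose and 34% fell. The median was -0.20 against -0.09 over all genes. With equal totals the counts were 7 and 6. The same shares of all genes stand behind the KO and ETO counts of each list below, and no list count was tested against them. Ago1 measured 999.8 ± 24.5 in ETO and 2142 ± 109 in Control (log2 difference -1.10, SE 0.07, limma, adjusted p = 2.27e-09). Ago4, another Argonaute, went the other way, with 124 ± 7.60 in ETO and 19.9 ± 6.12 in Control (log2 difference 2.61, SE 0.25, adjusted p = 2.15e-07). Drosha, the nuclease of the Microprocessor in a row with AC133189.1, measured 2759.8 ± 15.2 in ETO and 4541 ± 60.4 in Control (adjusted p = 1.88e-08). Trim71, a stem cell ubiquitin ligase and itself a let-7 target, measured 1505 ± 103 in ETO and 2697 ± 162 in Control (adjusted p = 5.84e-08), and 2661 and 2642 in the Released libraries. The signed KO change minus the ETO change was past the threshold in 54.5% of all genes tested, including Ago1 and Trim71.

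The rows of the let-7 hairpins themselves were at or near 0. Of the 10 let-7 family rows, 9 were at 0 in all libraries, and Mirlet7a-1 had 0.830 normalised counts, equal to 1 read, in ETO replicate 2. Total RNA libraries of this kind do not measure mature microRNAs, so let-7 activity is not known here. A count of 0 allows up to 3 reads, or 2.07 to 4.04 normalised counts by library, for counting error only. Among host and linked rows, 3 were tested. Wdr82, in whose locus Mirlet7g lies, rose by 0.17 in KO (adjusted p = 0.0245, limma), a call lost with each other scaling, and fell by 0.37 in ETO (adjusted p = 2.79e-05). Huwe1 (in a row with Mir3113) and Mir125a (in a row with Spaca6) were not called in either.

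Uridylation and 3′ to 5′ decay genes, which act before and beside DIS3L2, were followed in 26 rows. In KO 9 rose and 5 fell, with a median of 0.11 against 0.08 over all genes. With equal totals 0 rose and 8 fell by limma, with a median of -0.05, and with TMM factors 5 rose and 6 fell. Zcchc6, the older symbol of the uridylyl transferase TUT7, measured 1384 ± 36.3 in ETO and 799 ± 6.94 in Control (log2 difference 0.79, SE 0.08, limma, adjusted p = 5.15e-07). Of the list 3 rose in ETO, also including Zcchc11 (TUT4) by 0.29 and the row that merges Aars with Exosc6, and 16 fell, with a median of -0.38 against -0.09. Among those that fell were subunits of the RNA exosome, the complex that degrades RNA from its 3′ end. Exosc8 measured 889.6 ± 29.5 in ETO and 1403 ± 5.53 in Control (adjusted p = 4.25e-07), and Exosc2 measured 615 ± 21.3 against 969 ± 39.3 (adjusted p = 1.22e-06). Pnpt1, a mitochondrial exonuclease, measured 856 ± 7.04 in ETO and 1563 ± 6.74 in Control (adjusted p = 7.54e-08). In KO, Usb1, which trims U6 RNA, measured 396 ± 4.53 against 623 ± 52.2 in WT (adjusted p = 7.03e-05). Skiv2l (with Mir6970), the helicase of the cytoplasmic exosome, measured 389.7 ± 23.5 against 574 ± 36.7 (adjusted p = 0.00011), and Exosc7 fell by 0.36 (adjusted p = 0.00322).

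Other genes described as let-7 targets, 34 of 35 tested, did not move one way. In KO 17 rose and 4 fell, with a median of 0.21 against 0.08 over all genes, and with equal totals 8 rose. In ETO 13 rose and 14 fell, with a median of 0.04 against -0.09. Slc20a1, a phosphate transporter, had 9229.8 and 9259 normalised counts in KO against 4183 and 4351 in WT (log2 difference 1.12, SE 0.05, limma, adjusted p = 6.37e-09). Its values were 11984 and 12158 in ETO against 2414 and 2319 in Control (2.35, SE 0.05, adjusted p = 7.69e-14), so that it was higher in both experiments, as Hmga2 was. Ccnd1, the cyclin of entry into S phase, measured 2124 ± 82.7 in KO and 1457 ± 37.0 in WT (adjusted p = 1.95e-05), but 1286 ± 88.5 in ETO and 4774 ± 134 in Control (adjusted p = 5.12e-12). Cdk6, its kinase partner, measured 198 ± 20.7 in ETO and 732 ± 29.7 in Control (adjusted p = 3.65e-10). Igdcc4 measured 445 ± 20.5 in ETO and 84.6 ± 9.56 in Control (adjusted p = 5.4e-10). Hras, a RAS GTPase, rose by 0.63 in KO (adjusted p = 0.000124). Insr, the insulin receptor, measured 174 ± 23.8 in KO and 344 ± 2.47 in WT (adjusted p = 6.87e-05), and 355 ± 54.6 in ETO and 208 ± 18.5 in Control.

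**Figure D5:**
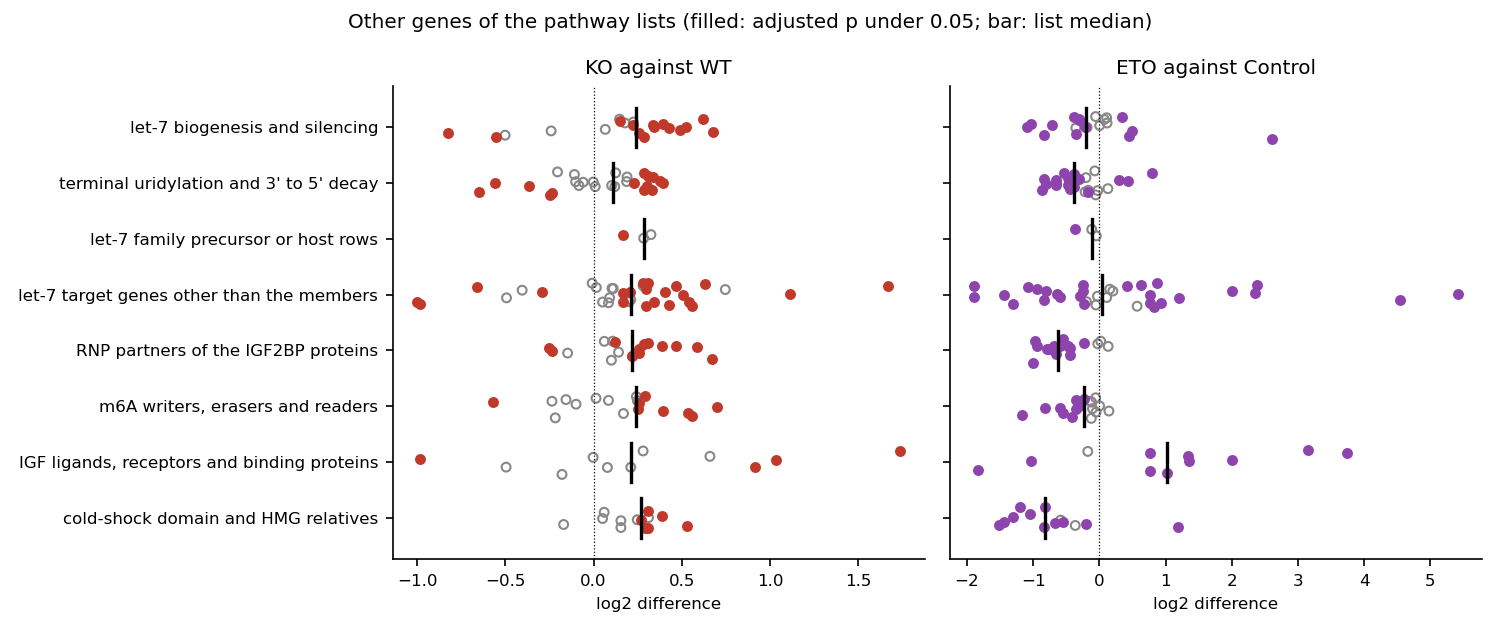
Fitted log2 difference of each tested gene in the 8 lists, in KO against WT (left) and ETO against Control (right); filled points passed an adjusted p under 0.05 and bars are list medians, and a gene in 2 lists is drawn in both. The median of the RNP partners is 0.22 in KO and -0.62 in ETO, and that of the IGF genes 0.21 in KO and 1.02 in ETO.

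Genes whose 3′ UTR holds an 8mer, 451 of those tested other than the members, had a median log2 difference of 0.06 in ETO against Control, where genes with no let-7 site (9951) had -0.07. In Released against ETO the medians were -0.11 and 0.09. In KO against WT they were 0.08 and 0.07, and in Released against Control -0.0053 and 0.02. These are descriptions over genes that are not independent, and the length of the UTR differs between the sets.

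Proteins found with the IGF2BPs in messenger ribonucleoprotein particles were taken as 18 rows. In ETO 15 fell and 0 rose by limma (also 15 and 0 at an unadjusted p under 0.05), with a median of -0.62 against -0.09 over all genes. By TMM scaling 1 rose, and with equal totals 3 rose. Dhx9, an RNA helicase, measured 5723 ± 88.0 in ETO and 11500.0 ± 507 in Control (log2 difference -1.01, SE 0.06, limma, adjusted p = 8.92e-10). Pabpc1, the cytoplasmic poly(A)-binding protein, measured 15828 ± 308 and 27404 ± 938 in the same groups (adjusted p = 1.01e-09). G3bp1 (with Mir7652), a stress granule protein, measured 2692 ± 49.3 in ETO and 5169.6 ± 38.3 in Control (adjusted p = 3.53e-09). In KO 11 rose and 2 fell, with a median of 0.22. With equal totals the counts were 4 and 3, and without KO replicate 2 only 5 rose. Hnrnpu measured 15564 ± 599 in KO and 10393 ± 1280.3 in WT (adjusted p = 1.03e-05), and 9877 ± 152 in ETO and 19311 ± 72.1 in Control (adjusted p = 5.53e-09). The rows of Matr3 and Syncrip, both merged with other genes, and Ybx1 also rose in KO, by 0.67, 0.47 and 0.31 (adjusted p = 4.44e-05, 0.000255 and 0.000321).

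IGF2BP proteins also act as readers of N6-methyladenosine (m6A), and 17 rows of m6A writers, erasers and readers were tested. In KO 7 rose and 1 fell, with a median of 0.24, and with equal totals 4 rose and 6 fell. Wtap, a subunit of the writer complex, measured 2067 ± 80.1 in KO and 1277 ± 133 in WT (log2 difference 0.70, SE 0.08, limma, adjusted p = 9e-06). Rbm15b (in a row with Manf), which guides the writer, rose by 0.56 (adjusted p = 2.17e-05) and Ythdf3, a reader, by 0.40 (adjusted p = 0.00155). Fto, an eraser, measured 1720.2 ± 115 in KO and 2555 ± 53.7 in WT (adjusted p = 4.59e-05). In ETO 0 rose and 9 fell by limma, the same counts as at an unadjusted p under 0.05, with a median of -0.24 against -0.09. Hnrnpa2b1 measured 6515 ± 808 in ETO and 14585 ± 443 in Control (adjusted p = 8.48e-06), Wtap 1479 ± 85.5 and 2603 ± 96.4 (adjusted p = 2.06e-07), and Hnrnpc 3336 ± 74.5 and 5047 ± 15.9 (adjusted p = 3.02e-07). Zc3h13, a writer subunit, fell by 0.55 in ETO (adjusted p = 5.76e-05), and was also lower in Released than in Control by 0.57 (adjusted p = 0.00064).

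IGF genes, after whose ligand the IGF2BPs are named, were tested in 11 of 14 rows. In ETO 8 rose and 2 fell, with a median of 1.02 against -0.09 over all genes. Igf2 had 131 and 151 normalised counts in ETO against 11.0 and 8.30 in Control (log2 difference 3.75, SE 0.29, limma, adjusted p = 2.68e-08), and 84.8 and 86.7 in Released. It was also higher in Released than in Control, by 3.04, as Hmga2 was by 0.73. The KO libraries held 21.5 and 14.4 against 7.40 and 8.84 in WT (1.03, SE 0.29, adjusted p = 0.0113), a call lost without WT replicate 1 or KO replicate 1. Igf2r, the receptor that clears IGF2, measured 4971 ± 666 in ETO and 1938 ± 16.8 in Control (adjusted p = 6.27e-10), and Irs2, an adaptor of the insulin receptor, 909 ± 100.1 and 225 ± 1.82 (adjusted p = 1.85e-09). Igfbp2, a secreted IGF binding protein, went the other way, with 599 ± 9.92 in ETO and 2132 ± 66.0 in Control (adjusted p = 4.96e-11). In KO 3 of the 11 rose and 1 fell, near the 24.6% and 13.3% of all genes tested. Igfbp3 measured 355 ± 44.4 in KO and 105 ± 5.72 in WT (log2 difference 1.74, SE 0.14, adjusted p = 7.84e-07), and Igfbp5 101 ± 1.95 and 53.2 ± 5.86 (adjusted p = 0.00425).

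Relatives by domain, the cold-shock proteins and other high mobility group genes, were tested in 13 rows. In ETO 1 rose and 10 fell, with a median of -0.83 against -0.09, whereas Hmga2 was higher in ETO. Carhsp1, a cold-shock domain protein, was the gene that rose, with 1363 ± 13.6 in ETO and 596 ± 0.890 in Control (log2 difference 1.19, SE 0.07, limma, adjusted p = 1.44e-09). Ybx3 measured 2159 ± 33.2 in ETO and 3830.2 ± 103 in Control (log2 difference -0.83), and Hmgn1, a nucleosome-binding protein, fell by 0.84. In KO 6 rose and 0 fell by limma (7 and 0 at an unadjusted p under 0.05), with a median of 0.27, and with equal totals 2 rose. Ybx3 rose by 0.31 (adjusted p = 0.000674) and Carhsp1 by 0.29 (adjusted p = 0.00468).

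In Released, more genes of each of these lists were called against ETO than against Control, as among all genes tested (57.7% and 12.5%). Of all genes tested, 33.1% rose and 24.6% fell against ETO, and 7.03% rose and 5.51% fell against Control. No list count was tested against these shares. Against ETO, 15 RNP partners rose and 0 fell by limma (15 and 1 at an unadjusted p under 0.05), 16 decay genes rose and 5 fell, and 9 m6A genes rose and 1 fell. With equal totals 5 of the m6A genes rose and 2 fell. Of the cold-shock and HMG relatives 8 rose and 1 fell, and of the IGF genes 2 rose and 7 fell. The biogenesis list had 9 that rose and 5 that fell, and the let-7 targets 10 and 13. Against Control, 18 of 20 biogenesis genes, 23 of 26 decay genes, 17 of 18 RNP partners and 14 of 17 m6A genes did not pass the test. With only 12.5% of all genes called there, most genes of any list would not pass, and nothing is read from these counts. Of the 34 let-7 targets, the longest list, 3 rose and 8 fell there. Among them were Slc20a1, higher by 0.28 (limma, adjusted p = 0.00268), and Ccnd1, lower by 0.28 (adjusted p = 0.00998). Of the 13 cold-shock and HMG relatives 1 rose and 3 fell, and of the 11 IGF genes 2 rose and 0 fell. Without a Released or a Control replicate 2 or 3 of the targets fell, and in the FPKM values 0 rose and 0 fell by limma. Both comparisons share the Released libraries.

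Over the 10 libraries, the tested rows whose log2 values followed each member most closely, by Pearson's r, were as follows. For Lin28a they were A2m, Mrpl13 and Cox7a2 (r 0.990 to 0.991), and for Lin28b Rragb, Lgalsl and Rpl22l1 (r 0.959 to 0.971). For Hmga2 they were Gpr107, Agtpbp1 and Pramel6 (r 0.994 to 0.995), and for Dis3l2 Stat5b, Rgs9bp and the row of Phospho1 and Zfp652 (r 0.991 to 0.994). Those of Igf2bp1 were Asxl1, Sptan1 and Phf20 (r 0.993 to 0.997), of Igf2bp2 Cpne4, Calcoco2 and Lpcat1 (r 0.968 to 0.975), and of Igf2bp3 Topbp1 and Gsta4 (r 0.992 and 0.990). Among the members, Hmga2 and Dis3l2 were the pair with the largest r in size (-0.99), and Lin28a and Igf2bp3 had an r of 0.92. The libraries share a line within each experiment and fall into groups, so these values describe group differences and carry no test.

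Chromosomal neighbours are given for the 3 members with the largest ETO differences. Dhdds, 2412 bases from Lin28a, had a log2 difference of 0.08 in ETO against Control, and Ubxn11, on the other side, had 0.0029, where Lin28a had -4.56. Gpnmb, 14294 bases from Igf2bp3, had 7.32 and Tra2a had -0.06, where Igf2bp3 had -1.31. B4galnt2 had 4.66 and Snf8 had -0.16, where Igf2bp1, between them, had -0.81. In KO against WT, Dhdds had -0.64 and Gpnmb 2.51.

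The floxed WT cells and the E14tg2a Control cells differed at several members, as measured in separate experiments. Dis3l2 was 2.21-fold higher in WT than in Control. The means of Lin28a were 811 ± 37.2 in WT and 1319.8 ± 34.2 in Control, and Igf2bp1 measured 3511 ± 38.1 and 6116 ± 33.8 in the same groups. Lin28b, with 126 ± 14.0 in WT and 134 ± 18.6 in Control, overlapped. Differences of at least 2-fold in either direction between these groups were present in 26.7% of genes tested, and line, experiment and the additions to the medium cannot be told apart here.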

How the data were processed

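Per the labels' protocols, single-end TruSeq libraries were made from total RNA. TopHat2 2.1.1, SAMtools 1.5, deepTools and mm10 are named in the submitters' processing notes, and the counting program and its use of strand are not given in the sources used here. The deposited gene table, per the file headers, holds counts. Its low values (under 20 reads) were whole multiples of 1 step per library (0.689 to 1.35 per read), within 0.1 read, for 89.0% to 90.3% of values, so each deposited signal value appears to be reads over a library factor, not a whole count. Values of the second deposited table are FPKM, per the file headers.

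A count model had been planned for whole counts, so limma 3.58.1 (R 4.3.3) was fitted instead, as planned for other units. The model had 1 mean per group over all 10 libraries on log2(value + 1), with trend and robust moderation and no replicate block, and two-sided p-values adjusted by Benjamini-Hochberg over 16056 rows with at least 10 in 2 libraries. Fold changes on this scale understate those of low genes. Rows with a repeated name were summed, and 2 mitochondrial rows, at 0 in Released replicate 1, were left out. The members and lists were chosen with earlier results of these data known. Named genes were the members, up to 4 rows per list with the smallest adjusted p in KO against WT and in ETO against Control, Kat8, and the 3 rows most like each member; 2 of these genes are not reported here. Zcchc11 and the chromosomal neighbours, outside that rule, were named after their values were seen. Some genes stand in 2 lists: Dicer1, Trim71, Hmga1, Ybx1, Igf1r, Insr and Irs2. The fit was tested on simulated data. Alternatives were other pseudocounts, filters, scalings and moderation, FPKM with a pseudocount of 0.1, a fit per experiment, a replicate block and each library left out, and, added after seeing the data, another Lin28a FPKM for ETO replicate 1. Sequences are from RefSeq tables (GRCm38.p6) and GENCODE M21 (GRCm38), the same build as mm10, and coordinates are 1-based. Precision follows from depth: a value of 0 allows 3 reads. Tables and figures were made with matplotlib 3.10.9, pandas 2.3.3 and numpy 2.4.6 in Python 3.11.15.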

Additional observations from a re-analysis of the deposited data

Results flagged for a closer look

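For 19 reported rows of the pathway lists, KO and ETO changes went opposite ways and each was called. The difference between the changes (KO against WT minus ETO against Control, limma, adjusted over all genes) was past the threshold in each. Rows chosen on 2 opposite calls could hardly fail that test, so it adds no evidence to the calls. The share of all genes that meet the same rule was not counted. In biogenesis the differences were 1.06 for Ddx5 (row with Gm25994 and Mir3064), 0.61 for Ddx17, 1.59 for Ago1, 0.87 for Drosha (row with AC133189.1) and 1.27 for Trim71. Wdr82 differed by 0.53. Among let-7 targets Ccnd1 differed by 2.44 (adjusted p = 1.18e-10) and Insr by -1.75 (adjusted p = 2.4e-06). Among RNP partners the differences were 1.55 for Hnrnpu, 1.36 for the Matr3 row, 1.23 for the Syncrip row, 0.86 for Ybx1, 0.91 for Pabpc1 and 1.20 for the G3bp1 row. Among m6A genes they were 1.51 for Wtap, 0.70 for Ythdf3 and 1.70 for Hnrnpa2b1. Igfbp5 differed by 1.95 and Ybx3 by 1.13. The largest adjusted p of the 19 was 0.000121. Some of the single calls were lost under other settings. With TMM, median-of-ratios and equal-total scaling those of Wdr82, Drosha and Pabpc1 in KO and of Ddx17 in ETO were lost, and with equal totals also those of G3bp1 and Ybx3 in KO and of Ythdf3 in ETO. With FPKM those of Wdr82, Drosha, Pabpc1 and Igfbp5 in KO and of Ddx5, Ddx17, Wdr82, Insr and Ythdf3 in ETO were lost. In KO, G3bp1 was uncalled at 0.20 without KO replicate 2 and Wdr82 at 0.14 without KO replicate 1. In ETO, Ddx17 was uncalled at -0.17 without Control replicate 1, and Ythdf3 at -0.27 without Control replicate 1 and -0.26 without ETO replicate 1. Drosha (0.13 to 0.16) and Pabpc1 (0.10 to 0.14) in KO were each uncalled without any 1 of 7 of the 10 libraries.

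Lin28b, Igf2bp1 and Igf2bp3 were higher in both KO libraries than in both WT libraries and lower in both ETO libraries than in both Control libraries. Their KO difference minus their ETO difference was 1.18, 1.15 and 1.52 on the log2 scale. As members chosen with these values known, they were given no test, and the difference was not tested.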

How the results depend on the processing

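Calls over all genes numbered 6086 between KO and WT, 9763 between ETO and Control, 9262 between Released and ETO, 2012 between Released and Control and 8754 for the difference of the KO and ETO changes. They stayed within 1.5 times of these under the alternatives except as follows. In KO against WT the FPKM values gave 2959. In Released against Control the FPKM values gave 348, a fit per experiment 3662 and a fit without trend and robust moderation 1171, and leaving out 1 library gave 770 to 2864, with 882 and 896 without a Control replicate and 828 and 770 without a Released replicate. The replicate block gave 3110 there and 6962 between KO and WT, 10282 between ETO and Control, 9845 between Released and ETO and 9361 for the difference of changes. Replicates of like number did not pair, with correlations of their deviations from -0.04 to 0.08 between groups and 0.08 between KO and WT. The causes were not tested. The higher share of calls in the difference of the KO and ETO changes was 59.3%, against 48.2% by TMM, 46.7% by median-of-ratios and 35.9% with equal totals.

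The direction of a pathway gene reversed in 5 cases with a call on at least 1 side. With equal totals Drosha (-0.014), Pabpc1 (-0.044) and Hnrnpc (-0.15) turned in KO against WT. Ddx5 turned to -0.10 with FPKM in Released against ETO, and Huwe1 there gave -0.27 without ETO replicate 1 and 0.21 without ETO replicate 2, being uncalled with all libraries. Of the pathway gene values under the alternatives, 3718 kept direction and side of the threshold, 165 lost the call and 60 gained it. The KO counts of genes that rose in a list varied most. With equal totals they were 8 rather than 17 for let-7 targets, 6 rather than 12 for biogenesis, 4 rather than 11 for RNP partners and 0 rather than 9 for uridylation and decay (limma). With FPKM they were 6, 6, 7 and 1. Without KO replicate 1 those of targets and decay were 10 and 5.

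The sign of a member's difference changed for Igf2bp2 in KO against WT (-0.13 to 0.10), Dis3l2 in ETO against Control (-0.17 to 0.04) and Igf2bp1 in Released against Control (-0.0099 to 0.32). Lin28a in ETO against Control ran from -4.77 to -3.90 and Hmga2 in KO against WT from 0.63 to 0.86. Depth limits Lin28a in ETO and Lin28b in Released and ETO, with 48.0 to 104 estimated reads a library, and Lin28b in Control replicate 1, with 110.0.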
